A study of Mus musculus with 6 samples.

Results

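The p200 genes are a family of interferon-inducible mouse genes that lie side by side on chromosome 1. The 10 symbols Aim2, Ifi202b, Ifi203, Ifi204, Ifi205, Ifi207, Ifi209, Ifi211, Ifi213 and Mnda were looked up in a table of 54532 genes, and 9 of them were found. Mnda has no row under that symbol, and RefSeq gives it as a synonym of Ifi211, which is among the 9. Another 5 genes of the same cluster, Ifi206, Ifi208, Ifi214, Mndal and the pseudogene Ifi203-ps, are set beside them as close relatives. Together the 14 genes span 681 kb of GRCm38, chr1:173350879-174031810.

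Most proteins of this family, also called PYHIN proteins, carry an N-terminal pyrin domain, which binds other pyrin domains, and a C-terminal HIN domain, which binds DNA. AIM2 is the best known: on binding double-stranded DNA in the cytosol it recruits the adaptor ASC and caspase-1 and so forms an inflammasome, which matures interleukin-1β and interleukin-18 and triggers pyroptosis. Other members have been placed in the sensing of foreign DNA upstream of STING, in the restraint of AIM2 and in the control of growth and differentiation, and many of them are induced in macrophages by interferons.

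The libraries come from primary mouse peritoneal macrophages, drawn out with thioglycollate and kept as adherent cells, in which RNA was measured by bulk RNA-seq. In the SAHH-KO group, 3 libraries, S-adenosylhomocysteine hydrolase (the product of Ahcy) had been targeted, and the labels call its genotype an SAHH knockdown in another field. In the control group, also 3 libraries, cells carried shControl and are given as WT. All cells of both groups had been treated with interferon-γ (2 ng/mL) together with lipopolysaccharide (10 ng/mL) over 8 h, so no untreated level is known here. Strain, age, sex and the number of animals are not given in the sources used here, and nothing says that replicates came from separate animals or cultures, so p-values measure the spread between these libraries, which may be technical.

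Gene-assigned reads numbered 15856261 to 17748745 in SAHH-KO libraries and 15540442 to 16676534 in control libraries. Ahcy read 5.51, 5.50 and 6.23 FPKM (fragments scaled by gene length and by library size) in SAHH-KO, against 25.8, 22.6 and 24.4 FPKM in control. Its reads cannot be told apart with certainty from those of Gm4737, which shares 66.0% of the 50-base words of Ahcy transcripts. The same holds for Gm9826, which shares 30.2% of these words, and Gm5638, which shares 3.97%. Of 11 macrophage markers 8 reached 1 FPKM in at least 3 libraries, and 5 of these were called higher in SAHH-KO and 0 lower by limma (median log2 fold change 0.36, Fcgr1 1.88, Adgre1 1.04 and Spi1 0.63). Of all genes tested 26.4% were called higher and 26.8% lower. Csf1r, Cd68 and Lyz2 did not pass the test, with -0.23, 0.05 and 0.22. The markers summed to 9568 to 10853 FPKM in SAHH-KO and 8530 to 8818 FPKM in control, and their part in the results below was not tested. Mertk and Marco had 2 reads each over all 6 libraries and Mrc1 had 191. Summed markers of T cells, NK cells, eosinophils, mast cells and fibroblasts or mesothelium stayed at or below 0.0856 FPKM in every library. Those of neutrophils summed to 0.437 to 0.820 FPKM in SAHH-KO and 4.76 to 5.66 FPKM in control, of which S100a8 made up 0.189 ± 0.251 FPKM in SAHH-KO and 4.63 ± 0.486 FPKM in control (SD, n = 3 each), while Ly6g, S100a9, Cxcr2 and Ngp had 0 reads in all libraries. The part of these cells in the results below was not tested. B cell markers summed to 0.253 to 0.465 FPKM in SAHH-KO and 0.259 to 0.283 FPKM in control, and dendritic cell markers to 0.225 to 0.319 FPKM in SAHH-KO and 0.172 to 0.316 FPKM in control.

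All 8 members other than Aim2 were higher in SAHH-KO, with group means 3.76 to 103 times those of control, while Aim2 differed by less than the test could call. The rises were largest in proportion for Ifi205, Ifi209 and Ifi204 and smallest for Ifi207 and Ifi213. In the limma fit across 10362 genes, 8 of the 9 members were called higher at a Benjamini-Hochberg adjusted p under 0.05, where 26.4% of all genes tested were called higher and 53.3% were called in either direction. Of the 9, 6 were called higher with a log2 fold change of at least 2, a bar that 1.61% of all genes tested passed. This count depends on the 1 FPKM added before the log. With 5 FPKM added instead, Ifi205 (0.97) and Ifi209 (1.59) stood under 2, and the share of all genes was not counted there. The same 8 members had every SAHH-KO library above every control library, which held for 30.7% of the genes tested, while 62.3% had groups apart in either direction. A gene was tested if it had at least 1 FPKM in at least 3 libraries. Ifi205 and Ifi209 met this through SAHH-KO alone, so a tested value of theirs had to be higher, and Ifi213 reached 1 FPKM in only 1 control library. With no such filter 8 members were again called higher, against a background of 12.0% of 22729 genes. Over all genes the fit called 2736 higher and 2782 lower, and 2006 higher and 3894 lower when the values were rescaled to TPM, under which 8 members were called too. In bulk RNA, a difference in the number of cells that carry a transcript and one in RNA per cell cannot be told apart.

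**Figure D1:**
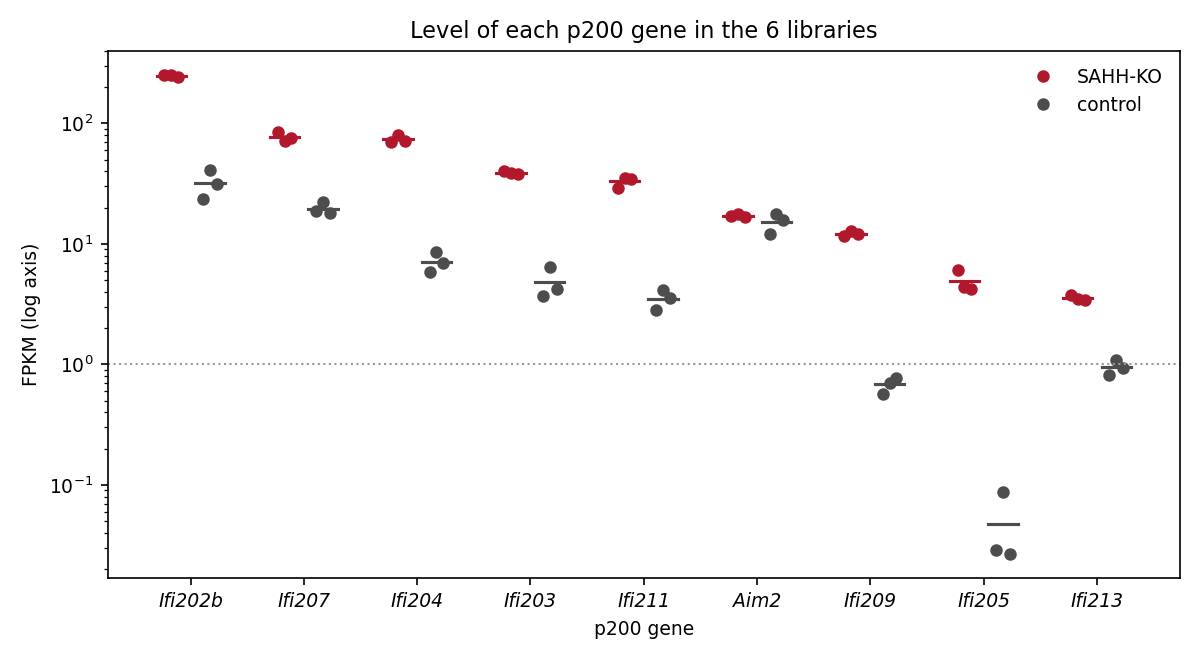
FPKM (log axis) of the 9 p200 genes found in the table, ordered by their SAHH-KO mean, with SAHH-KO libraries (red) left of control libraries (grey). Each point is a library, each bar a group mean and the dotted line 1 FPKM; the groups are apart for every gene but Aim2, whose points lie between 16.7 and 17.7 FPKM in SAHH-KO and between 12.1 and 17.9 FPKM in control.

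Aim2, the cytosolic DNA sensor of the AIM2 inflammasome, is a protein-coding gene on the plus strand at chr1:173350879-173466040, at one end of the cluster. It read 17.05, 17.7 and 16.7 FPKM in SAHH-KO, against 12.1, 17.9 and 15.8 FPKM in control. The groups overlapped, with control replicate 2 above all SAHH-KO libraries and control replicate 1 the lowest of the 6. The log2 fold change on log2(FPKM + 1) was 0.18 (95% confidence interval -0.12 to 0.48, limma adjusted p = 0.284), so a rise larger than 0.48 on this scale lay outside the interval, and a smaller change could not be told from the spread.

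Ifi202b, whose product p202 has HIN domains but no pyrin domain and is known to restrain AIM2 in mouse cells, was the p200 gene with the highest FPKM in both groups (minus strand, chr1:173962568-173982744). Its levels were 254, 252 and 241 FPKM in SAHH-KO, against 23.6, 40.7 and 31.5 FPKM in control. All SAHH-KO libraries were far above control, and the control libraries were spread over a wider relative range. This gave a difference of 2.96 in log2(FPKM + 1) (SE 0.167, limma adjusted p = 4.10e-06). None of its 50-base words occurs in GENCODE M21 transcripts of another gene, so among the members its reads are the least open to exchange with annotated relatives. Relatives absent from that annotation were not searched.

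Ifi204, the mouse relative of human IFI16 that has been linked to DNA sensing through STING, lies on the minus strand at chr1:173747293-173766943. It read 70.3, 79.9 and 71.7 FPKM in SAHH-KO, against 5.85, 8.58 and 7.01 FPKM in control. That is a 10.4-fold difference of the means, with a log2 fold change of 3.21 (SE 0.125, limma adjusted p = 6.30e-07), and 24 of the 10362 tested genes had a larger one. Its neighbour Ifi207 (minus strand, chr1:173723427-173741747) stood at 85.0, 71.5 and 75.6 FPKM in SAHH-KO, against 18.8, 22.3 and 18.0 FPKM in control. Ifi207 was thus near Ifi204 in SAHH-KO and above it in each control library, and its difference was smaller, 3.93-fold (log2 fold change 1.92, SE 0.104, limma adjusted p = 3.51e-06).

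Ifi203 and Ifi211 formed a middle tier. Ifi203 (minus strand, chr1:173920407-173942672) read 40.2, 38.8 and 38.3 FPKM in SAHH-KO, against 3.70, 6.45 and 4.24 FPKM in control. Ifi211 (minus strand, chr1:173896345-173913046) read 29.03, 35.6 and 34.8 FPKM in SAHH-KO, against 2.84, 4.14 and 3.54 FPKM in control. Both rose by similar amounts, 8.15-fold for Ifi203 and 9.45-fold for Ifi211 as ratios of means (log2 fold changes 2.82 and 2.93, limma adjusted p = 3.83e-06 and 1.08e-06). The Ifi211 value carries a limit, since 72.8% of its 50-base words also occur in other genes, 44.7% in Ifi205, 30.1% in Ifi204 and 17.1% in Mndal.

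Ifi209, Ifi213 and Ifi205 were the low members. Ifi209 (plus strand, chr1:173630917-173647928), for which RefSeq also gives the names Ifix and Pyhin1, was at 11.7, 12.7 and 12.1 FPKM in SAHH-KO, against 0.572, 0.705 and 0.773 FPKM in control (17.8-fold, log2 fold change 2.97, SE 0.0890, limma adjusted p = 1.70e-07). Ifi213 (minus strand, chr1:173566283-173599274) was at 3.73, 3.51 and 3.44 FPKM in SAHH-KO, against 0.821, 1.09 and 0.932 FPKM in control (3.76-fold, log2 fold change 1.23, SE 0.0963, limma adjusted p = 2.19e-05). Neither gene's groups touched, but the difference of Ifi213 was the smallest of the 8.

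Ifi205, at the far end of the cluster from Aim2 (minus strand, chr1:174011998-174031810) and reported in mouse macrophages to influence expression of the ASC gene Pycard, was nearly silent in control. It had 423, 278 and 272 reads in SAHH-KO, against 2, 6 and 2 reads in control. In FPKM these were 6.09, 4.37 and 4.23 in SAHH-KO, against 0.0286, 0.0877 and 0.0268 in control, where 3 reads are worth between 0.0402 and 0.0438 FPKM. Scaled to library size, the 973 reads of SAHH-KO were 105 times the 10 of control, with an exact 95% interval of 56.9 to 220 that covers counting error only. On log2(FPKM + 1) the fitted difference was 2.48 (SE 0.133, limma adjusted p = 3.33e-06). Ifi205 shares 18.6% of its 50-base words with other genes, 18.5% with Ifi211, so some of its reads may belong to relatives.

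**Figure D2:**
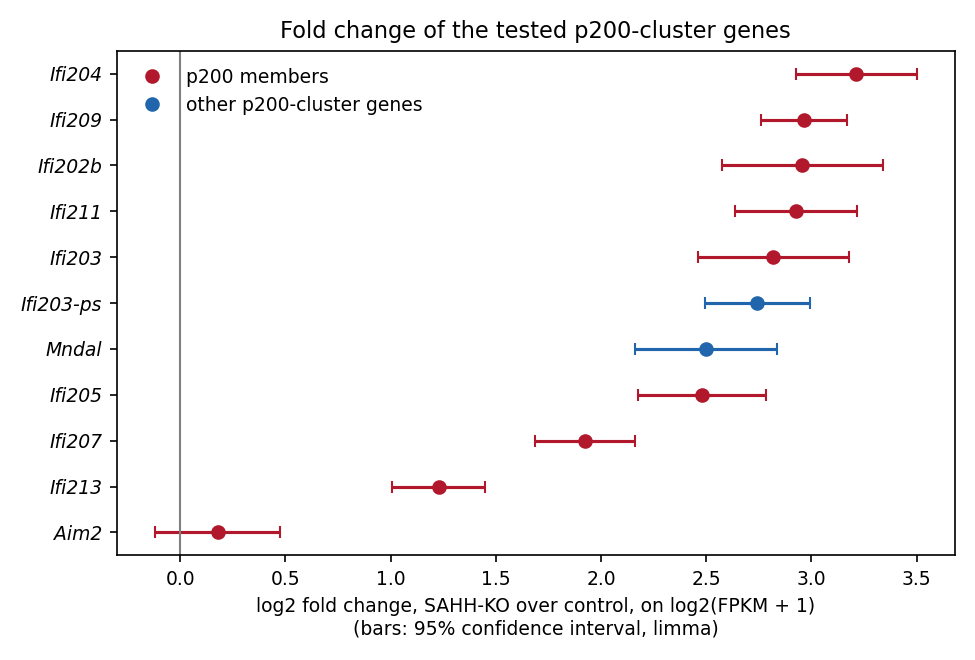
Log2 fold change of SAHH-KO over control on log2(FPKM + 1) for the 11 tested genes of the cluster, with 95% confidence intervals from limma, members in red and other cluster genes in blue. Ifi204, Ifi209, Ifi202b, Ifi211 and Ifi203 lie between 2.82 and 3.21 with overlapping intervals, Ifi213 lies at 1.23, and the interval of Aim2 includes 0; with a pseudocount of 5 Ifi209 would lie at 1.59.

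The members differed among themselves in how far they rose. By log2 fold change the order was Ifi204, Ifi209, Ifi202b, Ifi211, Ifi203, Ifi205, Ifi207, Ifi213 and Aim2, and intervals of neighbours in this order overlapped down to Ifi205. Those of Ifi205 and Ifi207 (2.17 to 2.78 and 1.69 to 2.16), of Ifi207 and Ifi213 (1.009 to 1.45), and of Ifi213 and Aim2 did not. This order depends on the pseudocount for the low members. With 0.1 and 5 in place of 1 the log2 fold change was 5.09 and 0.97 for Ifi205, 3.97 and 1.59 for Ifi209 and 1.81 and 0.53 for Ifi213. With 5, Ifi209 stood below Ifi207 (1.74), and with 0.1 Ifi205 and Ifi209 stood above Ifi204 (3.37). To compare each gene with Aim2 directly, the log2 value of Aim2 was subtracted in every library, for the 8 other members, Mndal and Ifi203-ps. In each of the 10 comparisons the SAHH-KO libraries lay above the control libraries, by 1.05 for Ifi213 to 3.04 for Ifi204, with an exact permutation p = 0.1 (two-sided) each, the smallest that 3 against 3 libraries allow. Adjusted over the 10 comparisons this p does not become smaller, so the test cannot pass 0.05 here. Aim2 was already seen to differ little between the groups, so these differences largely restate the rises given above. Ifi205, Ifi209 and Ifi203-ps met the filter through SAHH-KO alone, which favoured a higher value for them.

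The order of the levels differed between the groups. By FPKM in SAHH-KO it was Ifi202b, Ifi207, Ifi204, Ifi203, Ifi211, Aim2, Ifi209, Ifi205 and Ifi213, with only Ifi207 and Ifi204 overlapping among neighbours. In control the order was Ifi202b, Ifi207, Aim2, Ifi204, Ifi203, Ifi211, Ifi213, Ifi209 and Ifi205, in which Ifi204 and Ifi203, and Ifi203 and Ifi211, overlapped. Aim2 was thus the sixth of the 9 in SAHH-KO and the third in control, at nearly the same level.

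Reads were summed over the 9 members, since reads that counting moves between members stay in such a sum. Reads scaled to library size (CPM) summed to 1445, 1430 and 1385 in SAHH-KO, against 205, 299 and 239 in control, a ratio of means of 5.73. The groups were far apart. Without Aim2, a choice made after the values were seen, the ratio was 6.99, and over all 14 genes it was 5.86. The make-up of the sum differed too. Aim2 took 4.23 ± 0.104% of it in SAHH-KO and 21.6 ± 1.40% in control (SD, n = 3 each). Ifi207 took 18.6 ± 1.503% in SAHH-KO and 27.5 ± 3.32% in control. Ifi204 took 18.6 ± 1.29% in SAHH-KO and 10.3 ± 0.134% in control, and Ifi202b 29.8 ± 0.191% in SAHH-KO and 21.6 ± 1.87% in control. For none of the 9 members did the shares of the groups overlap. Shares of the same sum move together, so these are not 9 separate results. In level, 62.3% of all genes tested had groups apart in either direction. Shares must add to 100%, so the lower share of Ifi207 goes with a level that rose. Shares count reads and are not corrected for gene length. Control replicate 2 held the highest control value of 8 of the 9 members, while 39.6% of all tested genes had their highest control value there. Without that library the log2 ratio of the summed reads was 2.68, against 2.52 with it.

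**Figure D3:**
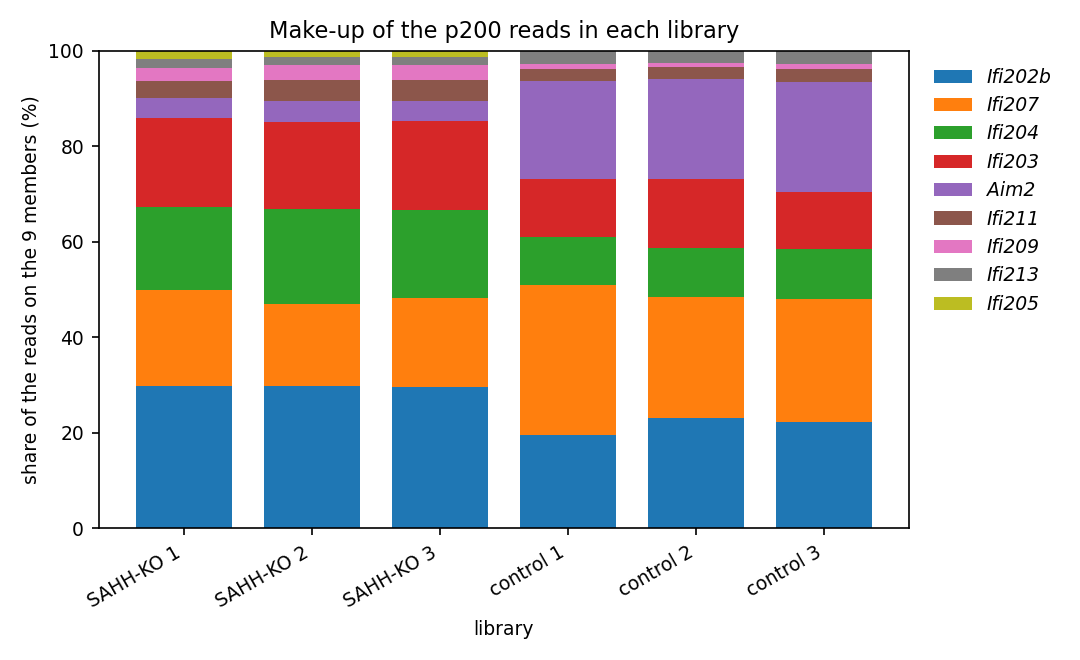
Share in percent of the reads on the 9 p200 members that each member took, 1 bar per library, SAHH-KO left and control right. The Aim2 segment is 4.13 to 4.34% in SAHH-KO libraries and 20.6 to 23.2% in control libraries.

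Of the 5 relatives outside the list of members 2 were tested, Mndal and Ifi203-ps, and both were called higher in SAHH-KO. Ifi203-ps met the filter through SAHH-KO alone, so a tested value of it had to be higher. Mndal read 35.2, 31.7 and 31.8 FPKM in SAHH-KO, against 3.69, 5.95 and 5.60 FPKM in control (log2 fold change 2.50, limma adjusted p = 5.02e-06). Mndal shares 19.6% of its 50-base words with other genes. The pseudogene Ifi203-ps read 10.8, 8.74 and 8.80 FPKM in SAHH-KO, against 0.607, 0.621 and 0.438 FPKM in control (log2 fold change 2.74, limma adjusted p = 6.52e-07). It shares 24.3% of its 50-base words with Ifi203, and reads in those stretches cannot be told apart. Ifi214, Ifi208 and Ifi206 stayed under 1 FPKM and were not tested. Ifi214 had 119, 109 and 100 reads in SAHH-KO, against 1, 8 and 4 in control, a scaled ratio of 27.2 with an exact 95% counting interval of 15.7 to 51.7. Ifi208 had 116 reads in SAHH-KO, against 16 in control (7.83, interval 4.62 to 14.2). Ifi206 had 19 reads in SAHH-KO, against 9 in control, and its interval of 0.983 to 5.72 includes 1.

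Sums over close relatives, between which reads may have been exchanged, were also higher in SAHH-KO (no test; SD, n = 3 each). Ifi204, Ifi205, Ifi211 and Mndal together held 462 ± 16.4 CPM in SAHH-KO and 50.3 ± 10.3 CPM in control, a ratio of 9.19. Ifi203, Ifi203-ps and Mndal held 406 ± 16.5 CPM in SAHH-KO and 52.0 ± 13.5 CPM in control, a ratio of 7.80. Of the Ifi209 words 33.4% occur in Ifi214, and this pair held 49.997 ± 1.91 CPM in SAHH-KO and 2.68 ± 0.513 CPM in control, a ratio of 18.6. Ifi213, Ifi208 and Ifi206 held 27.2 ± 1.49 CPM in SAHH-KO and 6.97 ± 1.13 CPM in control, a ratio of 3.90. Aim2 shared 0.742% of its words with other genes. How reads mapping to several genes were treated is not given here.

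**Figure D4:**
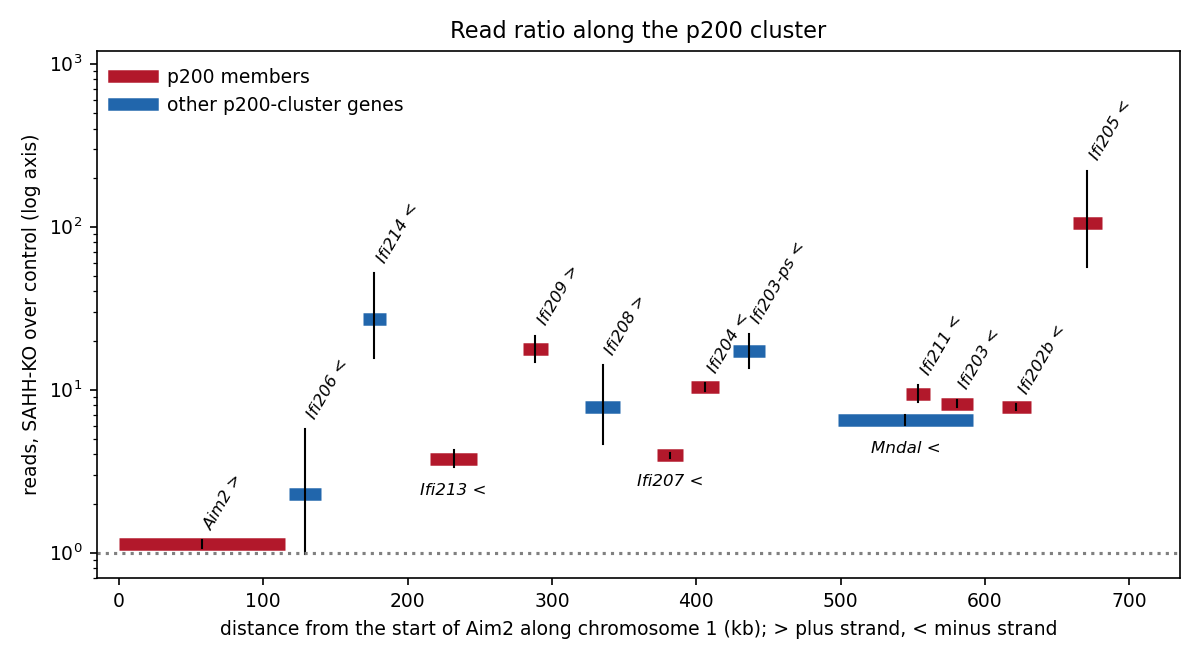
Scaled read ratio of SAHH-KO over control (log axis) for the 14 genes of the cluster, drawn at their distance in kb from the start of Aim2, with exact 95% intervals as vertical lines that cover counting error only. Aim2, at the left end, lies at 1.13, Ifi205, at the right end, at 105, and genes of both strands lie well above the dotted line at 1.

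The genes on either side of the cluster were nearly silent. To the left, Olfr1406, the first protein-coding gene with any value, had 0 reads in SAHH-KO and 1 in control. To the right, Olfr433, an olfactory receptor gene next to Ifi205, had 6, 14 and 15 reads in SAHH-KO, against 0, 2 and 2 in control. Within the cluster the pseudogene Gm18445, named after its values were seen, lies between Ifi202b and Ifi205 and read 33.6, 25.2 and 25.4 FPKM in SAHH-KO, against 6.79, 15.0 and 9.39 FPKM in control (log2 fold change 1.40, limma adjusted p = 0.00146).

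Promoter sequences (250 bases before to 50 after the start, GRCm38.p6, from RefSeq) were found for 8 of the 9 members and for 4 of the 5 relatives. They are shown because most of these genes rose together, and letters of the interferon-stimulated response element (ISRE) can be looked for in them. The motif searched, on both strands, was GAAA, then any 2 bases, then GAAA. It occurs in 3.44% of all 32851 promoter windows. It was found for 5 of the 8 members, Ifi203, Ifi205, Ifi207, Ifi211 and Ifi213, and for all 4 relatives (Ifi203 has a second start, whose window holds none). The 30 bases around the match that reads in the direction of the gene are given here 5′ to 3′, with the motif in capitals.
Ifi203, chr1:173942508-173942537, minus strand: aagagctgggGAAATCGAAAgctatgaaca
Ifi205, chr1:174031870-174031899, minus strand: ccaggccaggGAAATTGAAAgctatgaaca
Ifi207, chr1:173741831-173741860, minus strand: cctagccaggGAAATCGAAAattaagaaca
Ifi211, chr1:173913064-173913093, minus strand: caaagccaggGAAATTGAAAgctatgaacg
Ifi213, chr1:173599326-173599355, minus strand: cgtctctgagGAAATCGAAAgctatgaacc
Ifi206, chr1:173491339-173491368, minus strand: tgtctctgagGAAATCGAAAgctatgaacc
Ifi208, chr1:173673597-173673626, plus strand: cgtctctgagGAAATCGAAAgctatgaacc
Ifi214, chr1:173536017-173536046, minus strand: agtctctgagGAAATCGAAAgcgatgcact
Mndal, chr1:173880204-173880233, minus strand: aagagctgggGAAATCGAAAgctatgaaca
The matches begin 35 to 134 bases before the start. The letters are the same in 7 of the 9 genes: GAAATCGAAA is in the windows of Ifi203, Ifi206, Ifi207, Ifi208, Ifi213, Ifi214 and Mndal, and in 16 of all 32851 windows. Ifi205 and Ifi211 have GAAATTGAAA, which is in 38 of all windows. These exact letters were counted after the matches were seen, and the genes are copies of each other, so the matches are not independent. Further matches, on the other strand, lie 23 bases after the start in the Ifi205 window and 54 bases before a second start of Mndal.

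The windows of Aim2, Ifi202b and Ifi209 hold no match to these letters. The Ifi209 window holds taaatcgaaa, which differs from the GAAATCGAAA of Ifi214 in its first base only and follows the same letters ctctgag. This was seen after the search, and near matches were not searched for in the other windows. A second motif, TTCNNNGAA, the letters of the interferon-γ-activated site (the same on both strands), occurs in 8.30% of all windows and was found in that of Ifi202b alone among the p200 genes. Whole windows follow for Aim2, which did not pass the test and whose RefSeq start lies well inside the span of the gene given above, for Ifi202b, the gene with the highest level, and for Ifi205, the gene with the largest read ratio, with matches to either motif in capitals.
Aim2, chr1:173420354-173420653, plus strand: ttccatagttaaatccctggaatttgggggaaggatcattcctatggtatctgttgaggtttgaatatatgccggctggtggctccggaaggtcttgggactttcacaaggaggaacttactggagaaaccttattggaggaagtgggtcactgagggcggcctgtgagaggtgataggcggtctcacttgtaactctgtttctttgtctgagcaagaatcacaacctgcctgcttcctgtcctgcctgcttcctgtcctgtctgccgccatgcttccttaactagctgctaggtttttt
Ifi202b, chr1:173982795-173983094, minus strand: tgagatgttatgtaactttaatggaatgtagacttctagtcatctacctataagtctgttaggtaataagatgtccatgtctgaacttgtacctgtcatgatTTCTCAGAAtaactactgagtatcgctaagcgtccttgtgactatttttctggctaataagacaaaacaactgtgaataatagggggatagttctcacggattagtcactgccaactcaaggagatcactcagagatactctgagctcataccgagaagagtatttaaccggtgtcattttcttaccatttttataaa
Ifi205, chr1:174031706-174032005, minus strand: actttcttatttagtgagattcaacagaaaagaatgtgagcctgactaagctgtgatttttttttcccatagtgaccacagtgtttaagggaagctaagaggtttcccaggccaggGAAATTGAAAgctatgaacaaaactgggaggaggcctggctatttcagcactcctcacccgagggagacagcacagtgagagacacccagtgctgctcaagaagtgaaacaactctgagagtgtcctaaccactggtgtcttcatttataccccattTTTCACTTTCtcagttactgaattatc
The p200 windows hold 1 to 5 CpG dinucleotides, against a median of 7 over all windows. A match describes letters and not binding, and a window without one says nothing about sites elsewhere.

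Genes that act with the p200 proteins were read from lists. Of 22 matched genes of the AIM2 inflammasome and pyroptosis 19 were tested, 13 were called higher and 3 lower, with a median log2 fold change of 0.81, against -0.01 over all genes tested. Among the 13, Gm12250, named after its values were seen, met the filter through SAHH-KO alone, so its tested value had to be higher. Pycard, which encodes the adaptor ASC that AIM2 needs, had 11 reads in the 6 libraries together, too few to be tested. Whether its exons are shared with another gene, so that reads were lost in counting, was not looked at, and its level is not known. Casp1, the caspase recruited through ASC, read 38.1 ± 3.88 FPKM in SAHH-KO and 22.1 ± 5.18 FPKM in control (SD, n = 3 each, log2 fold change 0.78, limma adjusted p = 0.00414). Nlrp3 and Gsdmd, a sensor of another inflammasome and the pore former of pyroptosis, were called higher as well (log2 fold changes 0.87 and 1.05), as were Il18 (2.98), the nucleic acid sensor gene Zbp1 (3.10) and the guanylate-binding protein genes Gbp2 (4.03) and Gbp5 (4.48). Il1b read 43.5 ± 22.6 FPKM in SAHH-KO and 115 ± 14.1 FPKM in control (SD, n = 3 each) and was called lower (-1.54, limma adjusted p = 0.00879), but not when low genes were kept in the fit (limma adjusted p = 0.0566). Nek7, named after its values were seen, was also called lower (-0.46, limma adjusted p = 0.0108).

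Of 33 matched genes of DNA sensing through cGAS and STING 30 were tested, 9 were called higher and 10 lower, shares near those of all genes tested, and the median log2 fold change was 0.01. The 10 lower ones had log2 fold changes of -1.13 to -0.24. The sensor gene Cgas (Mb21d1 in the table) stood at 9.05 ± 0.108 FPKM in SAHH-KO and 8.79 ± 0.346 FPKM in control, and the STING gene Tmem173 at 12.2 ± 0.794 FPKM in SAHH-KO and 12.5 ± 0.864 FPKM in control (SD, n = 3 each, limma adjusted p = 0.694 and 0.743). The kinase gene Ikbke, the ubiquitin ligase gene Trim56, Irf7 and Ifnb1 were called higher, with log2 fold changes of 1.70, 1.27, 1.16 and 1.61. Ifnb1 reached 1 FPKM in SAHH-KO alone, so its tested value had to be higher, and it was 3.32 with a pseudocount of 0.1 and 0.57 with 5. Of 12 tested genes among nucleases and brakes on DNA sensing 5 were called higher and 5 lower (median -0.00). The higher ones with the smallest p were Usp18, a brake on interferon receptor signalling, Samhd1, a dNTP hydrolase, Adar, an RNA editor, and Pld4, an exonuclease (3.36, 1.66, 1.58 and 1.56). The 5 lower ones had log2 fold changes of -0.94 to -0.28. Trex1 was listed at 0 reads, and 100% of its exon bases are shared with Atrip, so its level is not known.

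Among interferon ligands, receptors and signalling genes 16 of 18 were tested, 13 were called higher and 1 lower (median 0.90). Ifnb1, the interferon-β gene, read 2.82 ± 0.551 FPKM in SAHH-KO and 0.260 ± 0.226 FPKM in control (SD, n = 3 each). The transcription factor genes Stat2, Irf1 and Irf9 had log2 fold changes of 3.54, 3.06 and 1.09. The lower one, Jak1, named after its values were seen (-0.24, limma adjusted p = 0.0349), was not called without control replicate 2 or 3 or without any one of the SAHH-KO libraries. For each list the share called can be set beside the 26.4% called higher and 26.8% called lower of all genes.

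**Figure D5:**
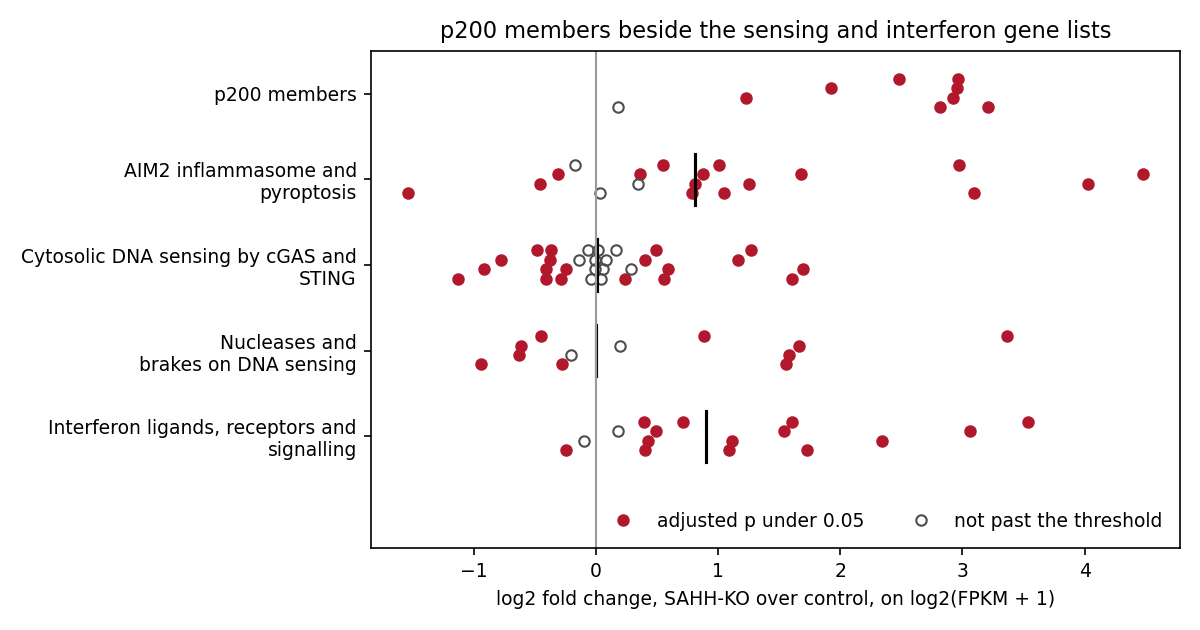
Log2 fold change of SAHH-KO over control on log2(FPKM + 1) for the 9 p200 members and for the tested genes of 4 lists. Each point is a gene, filled where the limma adjusted p is under 0.05, and a black line is the median of a list, 0.81, 0.01, -0.00 and 0.90 from top to bottom.

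The genes whose profile over the 6 libraries was most like the summed FPKM of the 9 members were Sp110, which encodes a nuclear body protein, Gbp7, a guanylate-binding protein gene, Mndal of the p200 cluster, Slfn8 of the Schlafen family and Xaf1, whose product binds the apoptosis inhibitor XIAP. Their log2(FPKM + 1), less its control mean, differed from that of the sum by a root mean square of 0.07, 0.11, 0.12, 0.12 and 0.13. Sp110, the closest, read 23.4 ± 0.317 FPKM in SAHH-KO and 3.05 ± 0.507 FPKM in control, and the summed members read 510.3 ± 10.6 FPKM in SAHH-KO and 84.0 ± 16.9 FPKM in control (SD, n = 3 each). The 1 FPKM added before the log lowers the fold change of low genes more than that of the sum. Likeness on this scale is thus not an equal ratio of FPKM, and Sp110 ranged from 1.82 to 2.91 under the alternatives. Ifi202b alone made up 249 FPKM of the sum in SAHH-KO and 31.9 FPKM in control.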

How the data were processed

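The authors deposited 1 table of FPKM values per gene for 6 libraries, with gene identifiers, GRCm38 coordinates and lengths. The submitters' processing notes name FastQC, Trim Galore, STAR and featureCounts, with GRCm38 and mm10 as builds. Versions, strand setting and handling of reads that map to several genes are not given in the sources used here. FPKM times gene length came out as whole multiples of 1 read for 100% of values above 0 (within 0.01 read), which gave reads per gene and the size by which each library had been scaled, 0.937 to 0.960 times the assigned reads in SAHH-KO and 1.05 to 1.07 times in control. CPM here are these reads scaled to that size. Counting intervals and the floor of 3 reads per library cover counting error only.

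Genes with at least 1 FPKM in at least 3 libraries (10362) were tested with limma 3.58.1 in R 4.3.3 (lmFit, eBayes with intensity trend) on log2(FPKM + 1), group as the only term, two-sided, Benjamini-Hochberg adjusted over all of them. Fold changes on this scale understate those of low genes. The script was tested on simulated data. Alternatives were 2 other pseudocounts, other filters, TPM and assigned-read scaling, no trend, a replicate block and leaving out each library. No 2 libraries held identical values, and the chi-square per degree of freedom of replicate pairs was 3.97 to 29.1.

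The members, lists and rules were chosen with earlier results of these data known. Genes named are the 9 members, the other cluster genes, Ahcy, per list the up to 4 called genes of smallest p, Cgas, Tmem173, Pycard, Casp1, Nlrp3, Gsdmd, Il1b, Il18, Trex1, Zbp1, Ifnb1, Irf7, the 5 most similar profiles and the cluster's neighbours. Some genes that the rule names are not reported here. Genes outside this rule are marked in the text as named after their values were seen. Of 11 symbols listed as other family members 5 had a row, as did 22 of 23 inflammasome genes and all genes of the other lists. Shared words are 50-base stretches of GENCODE M21 transcripts found in another gene, on either strand.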

Additional observations from a re-analysis of the deposited data

How the results depend on the processing

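All 8 members called higher kept their direction and their call under each alternative in which they were tested. With a filter at 5 FPKM, Ifi205 and Ifi213 were not tested and 6 members were called. Aim2 missed the threshold under all 14 alternatives (adjusted p between 0.0719 and 0.879). Its log2 fold change ranged from 0.03 to 0.29. Of 529 values of named genes under alternatives 524 kept direction and call. Il1b lost its call without the filter on low values. Mb21d1 and Tmem173, never called, changed sign: Mb21d1, at 0.04, was at -0.12 with TPM and -0.11 with assigned-read scaling, while Tmem173, at -0.04, ranged from -0.073 to 0.0139 without single libraries and was above 0 without SAHH-KO replicate 1 or control replicate 1.

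The balance of all genes moved with scaling. It was 2736 higher and 2782 lower as deposited, 2006 and 3894 with TPM and 2033 and 3905 with assigned-read scaling, which shift the median of all genes by -0.16 and -0.14 (log2). Summed p200 reads had a log2 ratio of 2.52 (2.40 to 2.68 without single libraries) and 2.81 without Aim2. The Aim2 share differed by -17.3 percentage points (-17.8 to -16.5 without single libraries), and by -16.1 over all 14 genes. Without the filter 4 relatives were called higher, in place of 2, and 1 inflammasome gene lower, in place of 3. With a filter at 5 FPKM 3 nucleases and brakes were lower, in place of 5. The count of lower interferon signalling genes was 2 with TPM or assigned-read scaling and 0 to 1 without single libraries. The cause was not tested.

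Whether equal replicate numbers pair the libraries could not be settled. The deviations of same-numbered libraries correlated by 0.0955, 0.101 and -0.00556, and those of differently numbered libraries by -0.117 to 0.0284. Deviations within a group of 3 add to 0, so these values depend on each other. With a replicate block 2729 genes were higher and 2761 lower, 8 members were called, and the lower interferon signalling gene was lost (0).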
